A study of Mus musculus with 6 samples.

Results

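Dbp, Tef, Hlf and Nfil3 encode the transcription factors that act on the D-box, a DNA element of clock-controlled promoters. They were chosen by symbol, with earlier results of these data known. All 4 were found among the 17645 genes listed in at least 1 library. RNA was sequenced from punches of the suprachiasmatic nucleus (SCN), the hypothalamic pacemaker of the circadian clock, in female C57BL/6 mice killed in darkness at zeitgeber time (hours after lights on) 12 to 14. The libraries titled r1r2V (3, replicates 1, 4 and 5) were taken as those of mice lacking Rev-erbα and Rev-erbβ (Nr1d1 and Nr1d2) in GABAergic neurons, and the libraries titled V (3, replicates 2, 3 and 4) as their controls. Each library pooled equal RNA from 2 SCN, and strain, sex, tissue and time were the same in both groups. The titles are not spelled out in the labels, which give neither the Cre driver, nor the exons removed, nor the age of the mice, nor whether the pools came from separate animals, so the p-values measure the spread between these pools. Glia and other cells without the deletion were part of each punch.

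DBP, TEF and HLF form the PAR bZIP family, proline- and acid-rich basic leucine zipper proteins that bind the D-box as dimers and activate transcription. NFIL3, also called E4BP4, is a basic leucine zipper repressor that competes for the same element. In the clock, E-boxes bound by BMAL1 and CLOCK drive the activators, while REV-ERB proteins repress Nfil3 in liver and immune cells, so that the activators and the repressor peak at opposite phases of the day. D-boxes lie in Per1, Per2, Per3, Cry1, Nr1d1, Nr1d2, Rora and Rorb, and mice without all of the PAR bZIP activators develop seizures.

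The promoter windows below, from RefSeq (GRCm38.p6), run from 250 bases before to 50 after an annotated start. They are shown because Nfil3 was the member that passed the test and because only Nfil3 and Tef held a searched element. Capitals mark CACGTG, the E-box core, or AGGTCA, the hexamer that REV-ERB and ROR proteins bind as part of a longer site, which reads TGACCT on the printed strand.
Nfil3, internal start, chr13:52980990-52981289, minus strand: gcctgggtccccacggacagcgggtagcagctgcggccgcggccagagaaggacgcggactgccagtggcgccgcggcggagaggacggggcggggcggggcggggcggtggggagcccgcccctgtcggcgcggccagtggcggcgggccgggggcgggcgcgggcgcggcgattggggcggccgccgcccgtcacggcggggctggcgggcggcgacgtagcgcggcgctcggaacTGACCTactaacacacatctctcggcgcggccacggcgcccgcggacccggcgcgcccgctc
Tef, upstream start, chr15:81802423-81802722, plus strand: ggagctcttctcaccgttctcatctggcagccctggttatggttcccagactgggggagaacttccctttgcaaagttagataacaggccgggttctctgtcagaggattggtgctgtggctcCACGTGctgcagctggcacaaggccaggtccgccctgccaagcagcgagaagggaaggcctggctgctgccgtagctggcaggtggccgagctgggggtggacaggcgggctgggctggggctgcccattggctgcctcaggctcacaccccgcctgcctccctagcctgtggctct
Tef, downstream start, chr15:81811164-81811463, plus strand: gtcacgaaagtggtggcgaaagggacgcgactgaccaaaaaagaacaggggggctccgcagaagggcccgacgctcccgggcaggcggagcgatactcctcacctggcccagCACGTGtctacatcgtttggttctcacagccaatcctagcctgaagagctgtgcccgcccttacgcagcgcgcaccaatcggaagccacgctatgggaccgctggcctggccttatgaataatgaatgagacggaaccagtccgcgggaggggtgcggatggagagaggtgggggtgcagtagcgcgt

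The Nfil3 window held 1 AGGTCA hexamer, whose match begins 12 bases before the annotated start on which the window was placed. That start lies inside the gene, downstream of the outermost annotated start of Nfil3, and the window of Dbp was also taken at an internal start. Both Tef windows held 1 CACGTG, beginning 127 bases before the upstream start and 138 bases before the downstream one. Searched on both strands, AGGTCA was in 16.3% and CACGTG in 7.15% of the 32851 windows in the table. The D-box itself, searched as TTATGTAA or TTATGCAA, was in 1.66% of windows and in none of the 5 windows of the 4 genes. The windows of Dbp and Hlf held none of these letters. Bases G and C made up 81.7% of the Nfil3 window, against 60.3% for Dbp, 67.3% for Hlf and 64.0% and 62.0% for Tef, and the median of all windows was 52.7%. These matches are letters in a window and not evidence of binding.

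Total expected counts ran from 17040698 to 17566335 in the libraries labelled r1r2V and from 15729603 to 17780928 in those labelled V. The deletion itself could not be seen in the gene totals, which cover all exons: Nr1d1 had 196, 157 and 147 CPM (expected counts scaled to library size) in the libraries labelled r1r2V and 56.7, 62.5 and 57.0 CPM in those labelled V. Nr1d2 was also higher, with 229, 275 and 222 CPM in the libraries labelled r1r2V and 177, 179 and 168 CPM in those labelled V. Totals over all exons cannot show whether exons were removed, so these values do not settle which group carries the deletion. Every direction given here rests on the titles. Of 14438 genes tested, 43 rose, which is 0.298%, and 17 fell, which is 0.118%. Without V replicate 2, 3 or 4 the counts that rose were 20, 20 and 19, and those that fell 7, 8 and 7. All 10 SCN markers, among them Avp, Vip and Six6, were detected in every library, and their summed level was 475 to 564 CPM in the libraries labelled r1r2V and 503 to 590 CPM in those labelled V. Avp gave 160 to 384 CPM of this sum in the libraries labelled r1r2V and 247 to 360 CPM in those labelled V. Single markers differed in direction: Rgs16 was apart and higher in the libraries labelled r1r2V (log2 fold change 0.85, edgeR, adjusted p = 0.0588) and Lhx1 apart and lower (-0.48, adjusted p = 0.546), and neither passed. Of the markers of GABAergic neurons, Gad1 and Gad2 overlapped between groups. Slc32a1 was apart and lower in the libraries labelled r1r2V (log2 fold change -0.25) and did not pass (edgeR, adjusted p = 0.314). Of all genes tested, 6.87% were apart and higher in the libraries labelled r1r2V and 7.63% apart and lower.

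Of the 4 genes, the repressor Nfil3 rose in the libraries labelled r1r2V and none of the 3 activators passed the test. On simulated counts this test called 3 of 50 genes changed 1.2-fold, so not passing does not show that a gene was unchanged. Those 50 genes were drawn across expression levels, so their share called is not that of genes at the level of the activators. In FPKM, a level per transcript length, the order was Tef, Dbp, Hlf and Nfil3 in every library, and no neighbours in that order overlapped within either group. Tef and Dbp stood high among the listed genes, above at least 89.4% of them in each library. Nfil3 stood above 64.8% to 68.8% of listed genes in the libraries labelled r1r2V and above 47.2% to 51.7% in those labelled V.

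**Figure D1:**
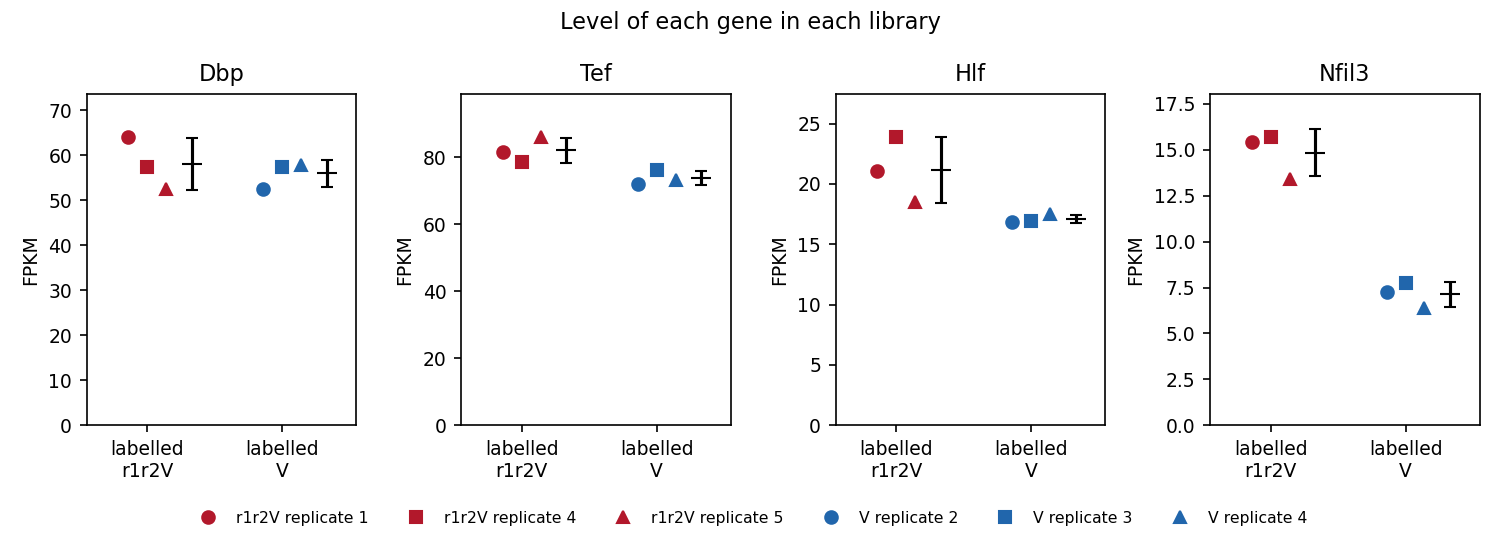
FPKM of Dbp, Tef, Hlf and Nfil3 (vertical axes, each from 0) in the 3 libraries labelled r1r2V (left, red) and the 3 labelled V (right, blue). Symbols are libraries, and the dash with bars is the mean ± SD; Nfil3 sits at 13.4 to 15.7 under the r1r2V label and 6.41 to 7.73 under the V label, and the Dbp values of the groups overlap.

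Nfil3, the repressor, had 15.4, 15.7 and 13.4 FPKM in the libraries labelled r1r2V and 7.27, 7.73 and 6.41 FPKM in those labelled V. The lowest value under the r1r2V label, in replicate 5, was still well above the highest value of a library labelled V, so the groups did not overlap. Behind these levels stood 505, 530 and 444 expected counts in the libraries labelled r1r2V and 248, 262 and 194 in those labelled V. In CPM the level was 28.5 ± 2.38 in the libraries labelled r1r2V and 13.7 ± 1.25 in those labelled V (SD, n = 3 each). Nfil3 rose 2.08-fold, a log2 fold change of 1.06 (95% interval 0.84 to 1.28), with an adjusted p of 0.000881 in edgeR's quasi-likelihood test, and it ranked 15 of the 14438 genes by p. With any 1 library left out the log2 fold change was 0.99 to 1.12 and the adjusted p at most 0.0109. Replicate 5 labelled r1r2V, where Nfil3 was lowest, had 77.4 CPM of summed meningeal fibroblast markers, against 41.1 and 49.7 CPM in the other libraries so labelled and 39.3 to 46.0 CPM in those labelled V. Its summed markers of neighbouring hypothalamic neurons were also the highest, at 2051 CPM, of which Pmch gave 581 CPM, against 1247 and 998 CPM in the other libraries so labelled and 1575 to 1688 CPM in those labelled V. Its glutamatergic markers summed to 297 CPM, against 191 and 217 CPM in the other libraries so labelled and 213 to 225 CPM in those labelled V. The summed markers of GABAergic neurons were lowest in it, at 1086 CPM, against 1206 and 1353 CPM in the other libraries so labelled. In those labelled V they were 1167 to 1320 CPM. Its astrocyte, microglia and endothelial sums were the highest of the 6 libraries, at 2771, 145 and 94.8 CPM. Of the SCN neuropeptide genes, Avp was highest in this library of all 6, at 384 CPM, and Vip lowest, at 11.4 CPM. The rise of Nfil3 was as large without it (log2 fold change 1.12, adjusted p = 0.000852). In tissue punches, more RNA per cell and more cells of an expressing type cannot be told apart. All libraries came from zeitgeber time 12 to 14, so the daily course of Nfil3 was not measured.

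Hlf had 21.0, 23.9 and 18.5 FPKM in the libraries labelled r1r2V and 16.9, 16.9 and 17.5 FPKM in those labelled V. All libraries labelled r1r2V lay above all labelled V, with replicate 5 closest to them, and the libraries labelled r1r2V were the more spread. The level was 118 ± 15.3 CPM in the libraries labelled r1r2V and 95 ± 1.87 CPM in those labelled V (SD, n = 3 each). The log2 fold change was 0.31 (95% interval 0.11 to 0.52, not adjusted for the number of genes), and it did not pass over all genes (edgeR, adjusted p = 0.381).

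Tef, the most abundant of the 4 per length, had 81.5, 78.6 and 86.1 FPKM in the libraries labelled r1r2V and 72.0, 76.1 and 73.3 FPKM in those labelled V. The groups again did not overlap, but the gap between them was narrow and replicate 5, lowest for Hlf and Nfil3 among the libraries labelled r1r2V, was here the highest. The level was 339 ± 16.8 CPM in the libraries labelled r1r2V and 303 ± 7.25 CPM in those labelled V (SD, n = 3 each). The log2 fold change was 0.16 (95% interval 0.03 to 0.30, not adjusted), which did not pass (edgeR, adjusted p = 0.579).

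Dbp, an output gene of the clock with a strong daily cycle in SCN and liver, had 64.1, 57.3 and 52.5 FPKM in the libraries labelled r1r2V and 52.5, 57.5 and 57.9 FPKM in those labelled V. The ranges overlapped, and the lowest values of both groups were nearly equal. The level was 91.7 ± 8.35 CPM in the libraries labelled r1r2V and 88.2 ± 4.41 CPM in those labelled V (SD, n = 3 each). The log2 fold change was 0.06 (95% interval -0.12 to 0.23; edgeR, adjusted p = 0.870), and without replicate 1 labelled r1r2V it was -0.012. In all, the groups did not overlap for 3 of the 4 genes, each with the libraries labelled r1r2V higher. Of all genes tested, 6.87% were apart in that direction. The 4 genes were chosen with earlier results of these data known, so setting them beside this share is description and no test.

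**Figure D2:**
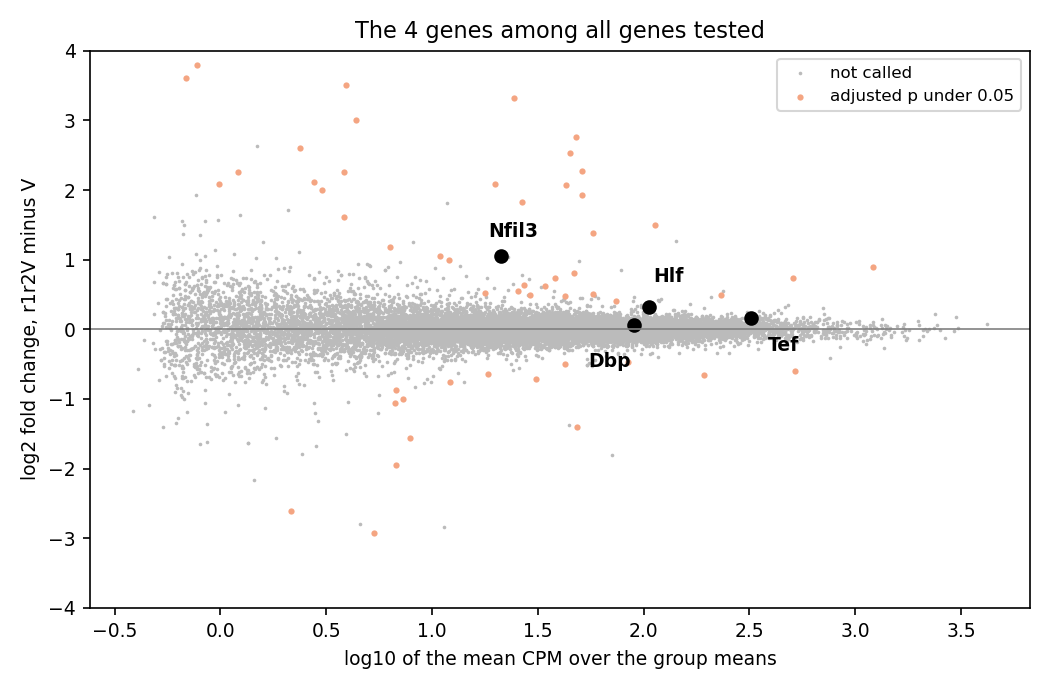
Log2 fold change, libraries labelled r1r2V minus those labelled V (vertical axis, cut at 4 log2 units either way, with 7 genes outside), against the log10 of the mean CPM (horizontal axis) for all 14438 genes tested. Orange points passed an adjusted p of 0.05 and black points are the 4 genes; Nfil3 stands at 1.06, apart from most genes of its level, while Hlf (0.31), Tef (0.16) and Dbp (0.06) lie within or at the edge of the band of genes not called.

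On GRCm38, Dbp lies on chromosome 7 from 45705100 to 45710203 (plus strand), Tef on chromosome 15 from 81802673 to 81826863 (plus), Hlf on chromosome 11 from 90336535 to 90390917 (minus) and Nfil3 on chromosome 13 from 52967209 to 52982878 (minus). None of the 4 had a near-identical copy. The end of Dbp overlaps Sphk2, a sphingosine kinase gene on the other strand, over 539 bp of exon in the GENCODE annotation, and the sources used here do not say whether counting used strand, so reads there cannot be assigned to one gene. Sphk2 had 38.7 ± 6.34 CPM in the libraries labelled r1r2V and 37.7 ± 0.705 CPM in those labelled V (SD, n = 3 each; log2 fold change 0.04). Tef overlaps the antisense gene Gm17597 over 193 bp at its upstream start, and Hlf and Nfil3 overlap no other annotated gene.

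The balance of activators to repressor was lower in every library labelled r1r2V than in every library labelled V. The ratio of summed Dbp, Tef and Hlf FPKM to Nfil3 FPKM was 10.8, 10.2 and 11.7 in the libraries labelled r1r2V and 19.4, 19.5 and 23.2 in those labelled V. The mean ratio was 10.9 ± 0.786 in the libraries labelled r1r2V and 20.7 ± 2.16 in those labelled V (SD, n = 3 each). On the log2 scale the difference was -0.92, or 1.89-fold lower, with a within-group SD of 0.10 in the libraries labelled r1r2V and 0.15 in those labelled V. Being a ratio inside 1 library, it does not depend on how libraries are scaled. Its denominator Nfil3 rose 2.08-fold and the summed activators were 1.10-fold higher, so the lower ratio mainly restates the rise of Nfil3. The two-sided exact permutation p was 0.1, the smallest that this test can give with 3 libraries against 3, so the test cannot reach 0.05 for this value.

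**Figure D3:**
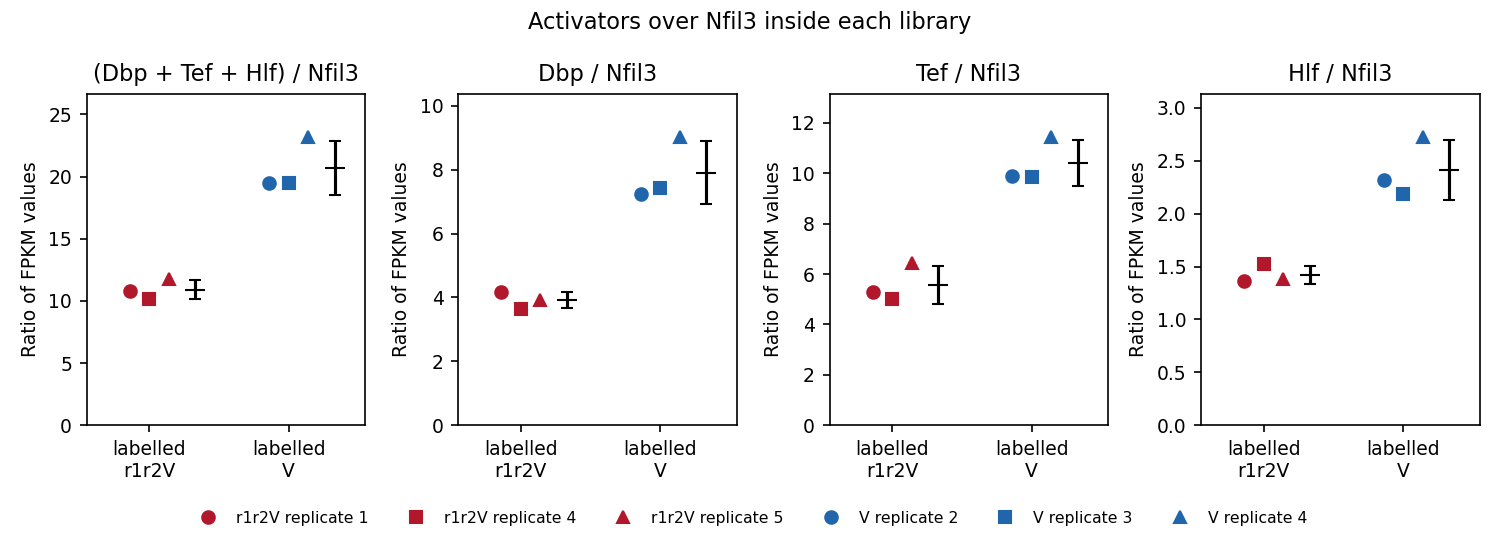
Ratio of FPKM values inside each library (vertical axes, each from 0) for the 3 activators summed, Dbp, Tef and Hlf over Nfil3, in libraries labelled r1r2V (left, red) and V (right, blue). Symbols are libraries and the dash with bars is the mean ± SD; in each panel all libraries labelled r1r2V lie below all labelled V, as for the summed ratio at 10.2 to 11.7 under the r1r2V label and 19.4 to 23.2 under the V label.

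Each activator taken alone gave a lower ratio to Nfil3 in the libraries labelled r1r2V. The 3 ratios share Nfil3 as their denominator, so they restate its rise and are not separate results. Dbp over Nfil3 was 4.16, 3.65 and 3.93 in the libraries labelled r1r2V and 7.23, 7.43 and 9.02 in those labelled V, a log2 difference of -1.01. Tef over Nfil3 was 5.29, 5.01 and 6.43 in the libraries labelled r1r2V and 9.90, 9.85 and 11.4 in those labelled V, a difference of -0.90. Hlf over Nfil3 was 1.36, 1.52 and 1.38 in the libraries labelled r1r2V and 2.32, 2.19 and 2.73 in those labelled V, a difference of -0.76. Each of these 3 ratios had an exact permutation p of 0.1, and 0.1 after adjustment over the 3. The groups did not overlap in any of them, and whether the 3 ratios differed among themselves was not tested.

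The summed level of the activators was 167, 160 and 157 FPKM in the libraries labelled r1r2V and 141, 150 and 149 FPKM in those labelled V. The mean was 161 ± 4.90 FPKM in the libraries labelled r1r2V and 147 ± 4.83 FPKM in those labelled V (SD, n = 3 each), 1.10-fold higher, with no overlap and an exact permutation p of 0.1, again the smallest possible. Tef made up 51.0% ± 3.32 of this sum in the libraries labelled r1r2V and 50.3% ± 0.829 in those labelled V, Dbp 35.9% ± 2.52 (r1r2V) and 38.1% ± 0.881 (V), and Hlf 13.1% ± 1.65 (r1r2V) and 11.6% ± 0.358 (V) (SD, n = 3 each). The Dbp share ranged from 33.4% to 38.5% in the libraries labelled r1r2V and from 37.2% to 38.9% in those labelled V, so the makeup of the activator pool overlapped between groups for Dbp and, likewise, for Tef and Hlf. The shares depend on the correction for length: in CPM, Hlf came before Dbp, with Dbp at 16.7% (r1r2V) and 18.1% (V) and Hlf at 21.5% (r1r2V) and 19.5% (V).

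Genes known to act on the members rose in part. Of 8 listed regulators, 3 rose, 0 fell and 5 did not pass, where 0.298% of all genes tested rose and 0.118% fell. The list was chosen with earlier results of these data known, so this count is description and no test. Their median log2 fold change was 0.20, against 0.0089 over all genes tested. Arntl, which encodes BMAL1, rose 1.66-fold (95% interval of the log2 fold change 0.58 to 0.89; edgeR, adjusted p = 0.000914). Npas2, which encodes another partner of BMAL1, rose 1.99-fold (adjusted p = 0.0359), and Bhlhe40, whose product DEC1 represses E-box transcription, rose 1.42-fold (adjusted p = 0.0318). The call of Bhlhe40 ended without V replicate 2, 3 or 4 (adjusted p = 0.221, 0.160 and 0.217). That of Npas2 ended without any 1 of these (0.254, 0.188 and 0.103) and without r1r2V replicate 1 or 4 (0.0817 and 0.113), but held without replicate 5. The other E-box partner gene, Clock, had a log2 fold change of 0.10, and Bhlhe41, the paralogue of Bhlhe40, one of 0.29 (adjusted p = 0.235). The genes of kinases that phosphorylate clock proteins, Csnk1d, Csnk1e and Gsk3b, had log2 fold changes of -0.0031, 0.10 and 0.013.

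Of 9 clock genes listed as possible D-box targets, 1 rose, 0 fell and 8 did not pass, where 0.298% of all genes tested rose and 0.118% fell. Their median log2 fold change was 0.22, against 0.0089 over all genes. The risen gene was Nr1d1, itself targeted, at 2.84-fold (edgeR, adjusted p = 8.24e-05). Cry1, a repressor of the clock, had 51.1, 52.2 and 40.9 CPM in the libraries labelled r1r2V and 34.9, 37.9 and 34.3 CPM in those labelled V (log2 fold change 0.43, adjusted p = 0.186). The groups of Cry1 did not overlap, and it passed with DESeq2 (adjusted p = 0.0306), which called 0.38% of genes higher, and with edgeR without r1r2V replicate 5 (0.0229). Nr1d2, also targeted, just missed the threshold (log2 fold change 0.47, adjusted p = 0.0553), and passed without r1r2V replicate 4 or 5 (0.0449 and 0.0311). The period genes Per1, Per2 and Per3 had log2 fold changes of 0.18, 0.22 and 0.07, and Ciart, a repressor gene, one of 0.29. Rora and Rorb, whose products activate through the site that REV-ERB occupies, were the members of the list with negative values, -0.19 and -0.08, and neither passed. The libraries labelled r1r2V were apart and higher for 5 of the 9, and apart and lower for 1, Rora, against 6.87% and 7.63% of all genes. Those higher were the targeted genes Nr1d1 and Nr1d2, and Per1, Cry1 and Ciart, none of which passed in the main test. The median of the list also includes both targeted genes. This list too was chosen with earlier results of these data known. The margin of Rora was narrow: its highest value under the r1r2V label was 73.35 CPM, and V replicate 4 had 73.53 CPM.

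None of the measured output genes of the D-box factors passed, which does not show that they were unchanged. Of 15 genes listed as possible outputs from work on liver, kidney, brain or pituitary, 7 were tested, 0 rose and 0 fell (edgeR, with 0.416% of all genes called). The median log2 fold change was -0.02, and values ran from -0.17 to 0.26. Pdxk, which encodes the pyridoxal kinase that activates vitamin B6 and depends on PAR bZIP factors in brain, had 277, 255 and 261 CPM in the libraries labelled r1r2V and 262, 262 and 282 CPM in those labelled V. Its ranges overlapped, and the 95% interval of its log2 fold change was -0.16 to 0.12. Por, the electron donor of cytochromes P450, and Alas1, the first enzyme of haem synthesis, had log2 fold changes of 0.04 and -0.02. Lpl, the lipoprotein lipase gene, and Noct, the nocturnin gene, had 0.26 and 0.12. In both the libraries labelled r1r2V were apart and higher without passing (edgeR, adjusted p = 0.670 and 0.683). They were 2 of the 7 tested, where 6.87% of all genes tested were apart in that direction. Ppara, a nuclear receptor of fatty acid metabolism, and Abcb1a, an efflux pump gene of brain vessels, had -0.17 and -0.07. The other 8 output genes, among them Cyp7a1, Cyp2a5 and Tshb, had at most 10 expected counts in any library or were not listed, so no difference was detectable at this depth.

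**Figure D4:**
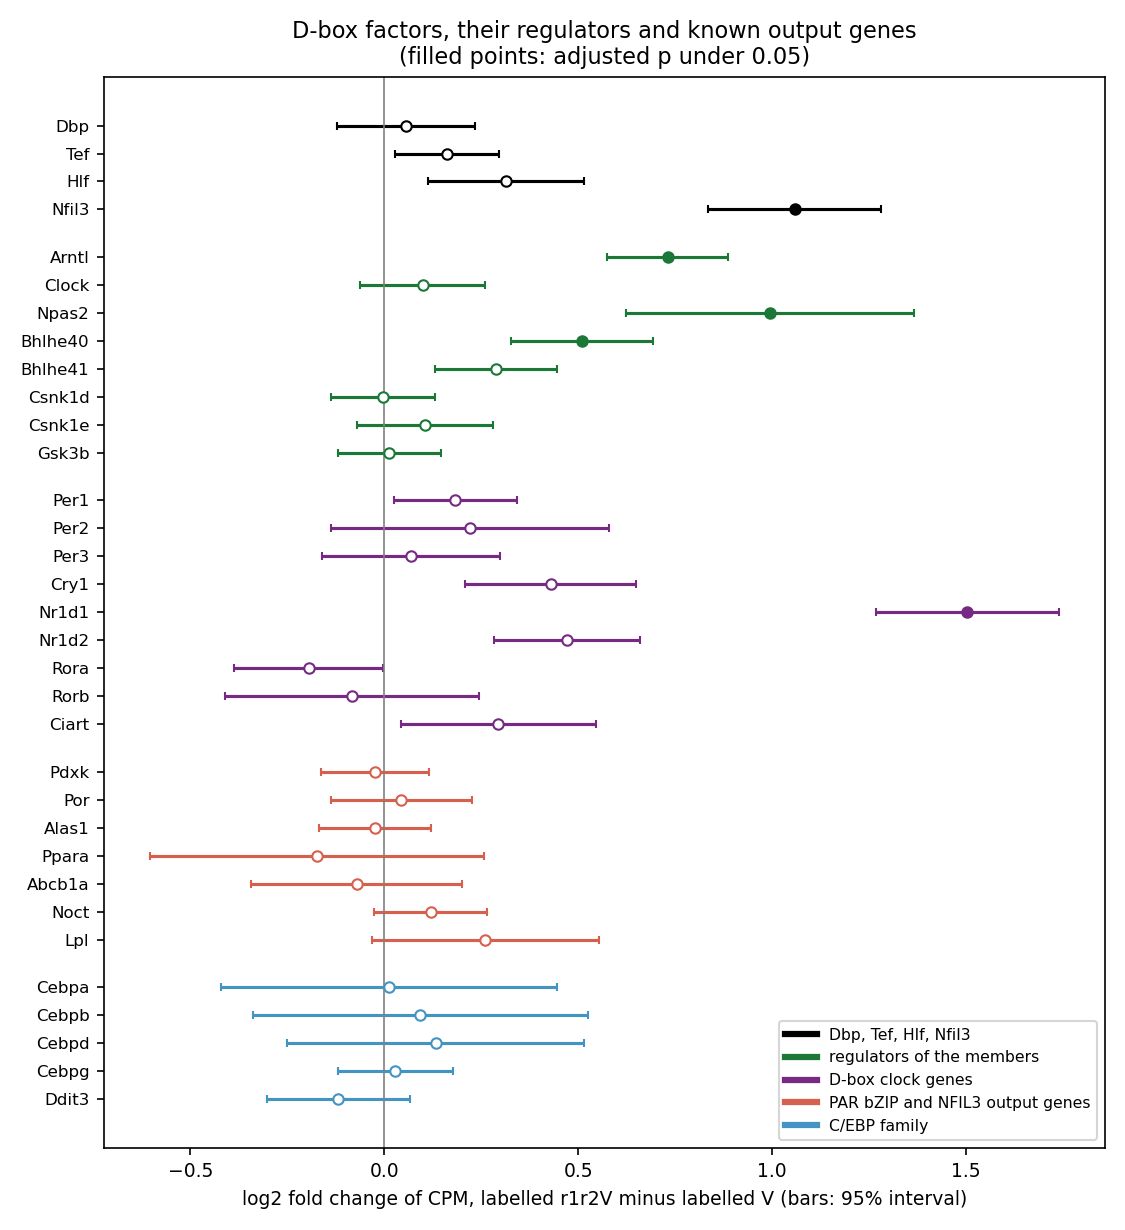
Log2 fold change of CPM, libraries labelled r1r2V minus those labelled V, with its unadjusted 95% interval (horizontal axis), for the 4 genes and the tested genes of the lists; filled points passed an adjusted p of 0.05. Nfil3 (1.06), Arntl (0.73), Npas2 (0.99), Bhlhe40 (0.51) and Nr1d1 (1.504) are filled, while all 7 output genes lie between -0.17 and 0.26.

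Profiles across the 6 libraries were compared by the root mean square difference of log2 CPM, each gene centred on its own mean, over the 13874 genes that averaged 1 CPM or more. The genes nearest to Nfil3 were Inhba, an activin subunit gene, at 0.14, Gm5796 at 0.16 and Gadd45b, a stress-response gene, at 0.17. Inhba had 4.47, 5.00 and 4.43 CPM in the libraries labelled r1r2V and 2.82, 2.59 and 2.35 CPM in those labelled V. It did not pass (edgeR, adjusted p = 0.108), nor did Gadd45b (adjusted p = 0.148), whereas Gm5796 did (adjusted p = 0.00941), though not without V replicate 2, 3 or 4 (0.0835, 0.0693 and 0.0701). Gm5796 has near-identical transcripts in 46 other genes, so its own value is uncertain. The genes nearest to Dbp were Ssh2, Mapkapk5 and Dido1 (0.01, 0.02 and 0.02), those nearest to Tef were Smug1, Ube2f and Tjp1 (0.02 each), and those nearest to Hlf were Taf15, Sgk3 and Gm38396 (0.05 each). The likeness describes these 6 libraries, and among nearly flat profiles a small difference is easily reached.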

How the data were processed

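RNA-seq tables of 6 SCN libraries were used, 3 labelled r1r2V and 3 labelled V. Per the file headers, the authors' tables give expected counts (estimated reads per gene, 9.9% of them not whole), FPKM and gene length in bases, the other unit read here as the authors deposited it. Per the submitters' processing notes, the build was mm10 and the tools named were RSEM 1.2.12, Bowtie2 2.2.5, HISAT2 2.0.4, StringTie 1.0.4, Cufflinks 2.2.1, DESeq2 and GATK; the role of each and the strand setting are not given in those sources. Genes a table did not list were set to 0.

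Expected counts were rounded and tested with edgeR 4.0.16 in R 4.3.3 (filterByExpr with a minimum count of 10, TMM scaling, quasi-likelihood test, Benjamini-Hochberg adjustment over all genes tested, threshold 0.05). On simulated counts it recovered 3 of 50 genes changed 1.2-fold, 28 of 50 at 1.5-fold, 42 of 50 at 2-fold and 50 of 50 at 4-fold. The changed genes were drawn across expression levels and not matched to the members. CPM used the TMM-scaled library sizes. Ratios used FPKM and exact permutation tests. Alternatives were DESeq2 1.42.0, limma 3.58.1 (voom, and log2 of FPKM plus 1 or 0.1), RLE and total-count scaling, no filter, a filter of 1 CPM, and each library left out. Copies were searched with BLAST+ 2.17.0 at 95% identity over 0.5 of the shorter transcript. For profiles, 0.1 CPM was added before logs. The members and lists were chosen with earlier results of these data known. Named genes were the 4 members, any tested gene of the lists (1 listed gene is not reported here), and the 3 nearest profiles of each member. Sphk2 and the 46-copy remark were added after values were seen. Libraries held 15729603 to 17780928 expected counts.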

Additional observations from a re-analysis of the deposited data

How the results depend on the processing

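Nfil3 kept its direction and stayed past the threshold under every alternative run, with log2 fold changes of 0.96 to 1.12 and adjusted p from 2.37e-12 (DESeq2) to 0.0109. Tef (0.12 to 0.19) and Hlf (0.21 to 0.39) stayed positive and short of the threshold in each, with adjusted p of 0.291 to 1.00 and 0.112 to 0.945. Dbp ran from -0.012 to 0.12 with 1 library left out, and turned negative without r1r2V replicate 1. The ratio of summed activators to Nfil3 stayed negative throughout (-0.98 to -0.84 without 1 library, -0.89 from CPM and from the mean of log2 FPKM), as did those of Dbp (-1.07 to -0.91), Tef (-1.01 to -0.83) and Hlf (-0.82 to -0.665). The summed activators stayed positive (0.11 to 0.17). With 3 libraries against 2 the smallest exact permutation p is 0.2.

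DESeq2 called 67 genes higher and 37 lower, and without 1 library 19 to 52 were higher and 7 to 24 lower. In CPM, which does not correct for length, the shares became 61.8% (r1r2V) and 62.3% (V) for Tef, 16.7% (r1r2V) and 18.1% (V) for Dbp and 21.5% (r1r2V) and 19.5% (V) for Hlf, an alternative added after seeing the data, as was leaving out libraries for these shares. Without 1 library they ran from 34.6% to 37.2% (r1r2V) and 37.7% to 38.5% (V) for Dbp, 49.05% to 52.0% (r1r2V) and 49.96% to 50.7% (V) for Tef and 12.2% to 13.8% (r1r2V) and 11.5% to 11.8% (V) for Hlf. Npas2 was short of the threshold with total-count scaling (adjusted p = 0.0532), limma-voom (0.0590) and both FPKM fits (0.0881 and 0.0797), while Nr1d2 passed with DESeq2 (3.84e-05) and without a filter (0.0267). Per2, at 0.22 with all libraries, ran from -0.015 to 0.37 with 1 library left out and was negative without r1r2V replicate 1. Genes nearer 0 also changed sign when 1 library was left out: Per3 (-0.031 to 0.12), Rorb (-0.27 to 0.082), Pdxk (-0.059 to 0.0083), Por (-0.0298 to 0.12), Abcb1a (-0.24 to 0.0403), Csnk1d (-0.034 to 0.021), Gsk3b (-0.0197 to 0.032), Cebpa (-0.18 to 0.20), Cebpb (-0.069 to 0.27), Mapkapk5 (-0.017 to 0.094) and Dido1 (-0.033 to 0.11). Cebpa was also negative with limma-voom (-0.0093), log2(FPKM + 1) (-0.011) and log2(FPKM + 0.1) (-0.018). The cause was not tested. No paired analysis was possible because only replicate number 4 occurs in both groups. Nfil3 had the lowest expected counts of the 4 genes, 194 to 530, and the largest standard error of its log2 fold change, 0.0996. Those of Hlf, Dbp and Tef were 0.0906, 0.0802 and 0.0603, and the part played by counts was not tested.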

Other observations

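Genes of the C/EBP family, basic leucine zipper factors whose sites resemble the D-box, did not pass the test. Of 6, 5 were tested, 0 rose and 0 fell (edgeR's quasi-likelihood test, with 0.416% of all genes called), and the median log2 fold change was 0.03, against 0.0089 over all genes. Cebpg, the most abundant in CPM, had 59.2, 62.8 and 61.0 CPM in the libraries labelled r1r2V and 62.6, 59.0 and 57.9 CPM in those labelled V. Its ranges overlapped (log2 fold change 0.03). Cebpa, Cebpb and Cebpd had log2 fold changes of 0.012, 0.092 and 0.13, and Ddit3, which encodes the stress-induced member CHOP, had -0.12. Cebpe had at most 2 expected counts in any library and was not tested.

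Tef was the only one of the 4 genes whose listed length varied between libraries. The gene length the authors' tables give for it, not whole and so a weighting of its transcripts, was 4219, 4209 and 4214 bases in the libraries labelled r1r2V and 4215, 4213 and 4202 bases in those labelled V, ranges that overlapped. The other lengths were 1678 bases for Dbp, 5665 for Hlf and 2019 for Nfil3 in every library.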
